A study of Mus musculus with 6 samples.

Results

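The 10 genes described here set the tone of the liver sinusoid: Gucy1a1, Gucy1a2, Gucy1b1, Prkg1, Pde5a, Nos3, Edn1, Ednra, Ednrb and Agtr1a. They were found by gene symbol, and all 10 were among the 32285 genes of the count matrices. RNA was counted in single nuclei of whole livers from 6 male mice of strain C57BL/6JBomTac, 18 weeks old, fed chow and fasted for 12 hours overnight. The study asked how hepatic stellate cells, through Plvap, affect fatty acid use in the fasted liver. There were 3 mice with a Plvap knockout in stellate cells and 3 littermate controls. The source label is the same for both groups and names the Plvap allele Plvaptm1.1Salm, on a B6.126(Cg) background, and the transgene Tg(Lrat-cre)1Rshw, which carries Cre under the control of Lrat, a gene active in stellate cells. The labels do not say whether the controls carried Cre, nor which exons the knockout lacks. The mice are the replicates. Between genotypes, p-values weigh a difference against the spread between mice. Within mice, they weigh it against how far that difference varies from mouse to mouse.

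Stellate cells wrap the sinusoid as contractile pericytes. Nitric oxide made by endothelial nitric oxide synthase (Nos3) diffuses into them and binds soluble guanylate cyclase, a pair of an alpha subunit (Gucy1a1 or Gucy1a2) and the beta subunit (Gucy1b1). The cyclic GMP so made activates protein kinase G (Prkg1), which relaxes the cell, and the phosphodiesterase Pde5a breaks cyclic GMP down. Endothelin-1 (Edn1) and angiotensin II oppose this: the endothelin A receptor (Ednra) and the angiotensin receptor (Agtr1a) drive contraction, while the endothelin B receptor (Ednrb) of endothelial cells is linked to endothelin uptake and nitric oxide release.

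The libraries held 23153182 to 27199466 UMIs, and 25662 nuclei were kept, 3954 to 4421 in knockout and 3528 to 5006 in control libraries. The 10 genes and Plvap were left out of the clustering, and clusters were named from marker genes, so each name stands for nuclei like that cell type. All 10 stellate markers and all 10 sinusoidal endothelial markers were detected in at least 10% of the nuclei of their class. The 3133 stellate nuclei (452 to 618 per library) held a portal-side type (912), a middle type (1102) and a central-side type (958). The sides are names from markers, such as Piezo2 and Il34 for portal and Adamtsl2 and Grid1 for central. Position in the lobule was not measured. Nkain2, a portal-side marker, was the top leading gene of the middle type and not a leading gene of the portal-side type. Rspo3, on both marker lists, was found in 77.9% of portal-side and 96.1% of central-side nuclei. The 8680 sinusoidal endothelial nuclei (1015 to 1704 per library) held periportal (892), midzonal (3787) and pericentral (1705) zones. Another 2 classes were called portal vessel (445, 54 to 95 per library) and central vein (271, 20 to 64 per library). The central vein cluster scored 0.73 for endothelial markers, under the minimum of 1 for a class name. Its nuclei were named endothelial from the coarser clustering. A cluster of low depth (1242 nuclei, median 2000 UMIs) and an unzoned cluster (1054) counted in the sinusoidal class but in no zone. The unzoned cluster scored 1.98 for midzonal and 1.58 for periportal markers. Its leading genes held the periportal markers Efnb2, Ntn4, Galnt15 and Adam23, so the zone values leave out nuclei with periportal traits. A small mesenchymal cluster of 122 nuclei, 11 to 28 per library, held 7 of 13 portal mesenchymal markers in at least 10% of nuclei. Its 10 leading genes included none of those markers but Ebf1 and Cdh13, which are on the B-cell and pericentral endothelial lists, so it is given no cell type name. In control 2, 9.54% of nuclei fell in clusters left out of all classes, against 1.02% to 2.06% in the other libraries, and any pair of libraries shared 1 to 10 barcodes. Plvap was at 227, 191 and 157 CPM in stellate nuclei of knockout mice and 242, 213 and 244 CPM in those of control mice. Only knockout 2 and knockout 3 lay below the lowest control, and the difference did not pass the test (log2 fold change -0.33, SE 0.15, adjusted p = 0.999). In the middle stellate type Plvap was at 219, 199.7 and 156 CPM in knockout mice and 269.7, 247 and 272 CPM in control mice. Every knockout mouse lay below every control mouse there, against 10.4% of all genes without overlap (log2 fold change -0.50, SE 0.16, unadjusted p = 0.00568, adjusted p = 0.971). In the portal-side and central-side types the genotypes overlapped. Plvap was also lower without overlap in portal vessel nuclei (means of 81.6 CPM in knockout and 119 CPM in control mice, from 63 and 100 UMIs). The same held in macrophages (1.91 and 3.81 CPM, from 20 and 42 UMIs) and hepatocytes (0.749 and 2.02 CPM, from 19 and 61 UMIs). The share of all genes without overlap was not counted in these classes, and was 8.44% to 11.4% in classes where it was. None of these passed the threshold, and in sinusoidal endothelial and central vein nuclei the genotypes overlapped. The labels do not say which part of Plvap was deleted, so how far these counts check the genotype labels is unknown. CPM means UMIs of a gene per 1000000 UMIs of all genes in the summed nuclei of a class and library.

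**Figure D1:**
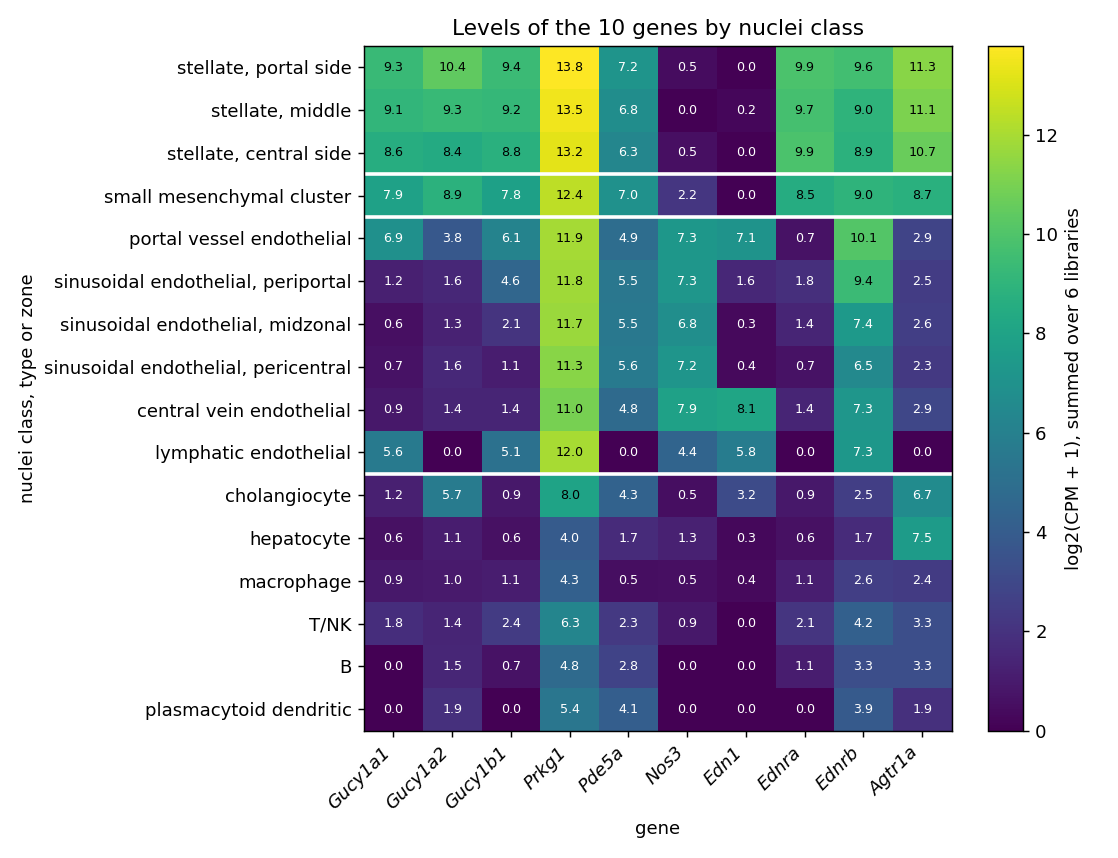
Levels of the 10 genes (columns) in stellate types, the small mesenchymal cluster, endothelial zones and vessels, and other classes (rows), as log2(CPM + 1) of UMIs summed over the 6 libraries. Guanylate cyclase subunits, Ednra and Agtr1a are highest in stellate rows, Nos3 in endothelial rows, and Edn1 in the portal vessel and central vein rows.

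The nitric oxide receptor genes were mainly found in stellate and other mesenchymal nuclei. Gucy1a1 (mm10, GENCODE M21, chr3:82092427-82145789, minus strand) and Gucy1b1 (chr3:82032006-82074689, minus strand) are neighbours, 17.738 kb apart with 0 annotated genes between them. Gucy1a2 lies elsewhere, at chr9:3532778-3894736 on the plus strand. The 250 bases before their starts are shown because the neighbours moved together across classes more closely (r = 0.94 over 84 sums) than Gucy1a1 and Gucy1a2 did (r = 0.85). The sequences are from RefSeq on GRCm38.p6, 5′ to 3′ on the strand of the gene, and 8 of the 10 genes had an entry. Capitals mark a GC box, GGGCGG on either strand.
Gucy1a1, first start, chr3:82145651-82145900, minus strand: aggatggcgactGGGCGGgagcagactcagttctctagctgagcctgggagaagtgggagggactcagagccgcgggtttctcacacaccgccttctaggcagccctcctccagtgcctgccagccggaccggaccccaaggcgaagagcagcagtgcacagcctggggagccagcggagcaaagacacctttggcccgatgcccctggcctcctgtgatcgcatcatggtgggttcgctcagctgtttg
Gucy1a1, second start, chr3:82145074-82145323, minus strand: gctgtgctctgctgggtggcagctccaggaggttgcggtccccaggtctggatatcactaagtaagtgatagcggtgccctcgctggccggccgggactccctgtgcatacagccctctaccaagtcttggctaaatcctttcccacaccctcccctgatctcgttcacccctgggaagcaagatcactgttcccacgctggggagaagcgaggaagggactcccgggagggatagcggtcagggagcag
Gucy1b1, chr3:82074712-82074961, minus strand: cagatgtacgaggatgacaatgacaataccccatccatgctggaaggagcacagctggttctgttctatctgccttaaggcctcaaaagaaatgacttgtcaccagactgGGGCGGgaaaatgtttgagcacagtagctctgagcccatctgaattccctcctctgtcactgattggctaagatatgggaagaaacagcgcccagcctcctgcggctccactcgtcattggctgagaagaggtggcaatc
Gucy1a2, chr9:3532099-3532348, plus strand: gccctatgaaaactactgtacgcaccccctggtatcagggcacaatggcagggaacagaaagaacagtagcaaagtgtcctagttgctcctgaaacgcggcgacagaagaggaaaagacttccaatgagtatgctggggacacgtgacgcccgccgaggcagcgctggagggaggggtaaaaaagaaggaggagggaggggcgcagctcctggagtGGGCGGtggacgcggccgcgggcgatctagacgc
A GC box lay 238 bases before the first start of Gucy1a1, 140 before that of Gucy1b1 and 34 before that of Gucy1a2, and none was in the window of the second Gucy1a1 start. These letters occur in 32.7% of 32841 RefSeq windows of the same length, so the matches only describe the windows.

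Gucy1a1 was at 524, 494 and 542 CPM in stellate nuclei of knockout mice and 549.6, 440.0 and 596 CPM in those of control mice. Its mean over both genotypes was 524 ± 53.3 CPM in stellate and 0.717 ± 0.304 CPM in sinusoidal endothelial nuclei (SD, n = 6 mice each). The stellate level was higher in 6 of 6 mice (log2 fold change 9.59, SE 0.19, adjusted p = 3.16e-43, edgeR quasi-likelihood test with the mouse as block and Benjamini-Hochberg adjustment, as in all comparisons within mice). After thinning each nucleus to 1000 UMIs, 36.4% of stellate nuclei had a Gucy1a1 UMI (82.6% before), against 0.115% of sinusoidal endothelial nuclei (0.265%) and 0.0767% of hepatocytes (0.518%), at median depths of 4870, 3518 and 10333 UMIs. Hepatocytes stand here for the background of free RNA. Gucy1a2 averaged 776 ± 83.6 CPM in stellate and 1.85 ± 0.327 CPM in sinusoidal endothelial nuclei (SD, n = 6). Gucy1b1 averaged 562 ± 113 CPM in stellate and 5.39 ± 2.96 CPM in sinusoidal endothelial nuclei (SD, n = 6). The alpha subunits parted in cholangiocytes, the cells of bile ducts, where Gucy1a2 was at 31.8 to 83.5 CPM and Gucy1a1 at 0 to 3.68 CPM.

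Of 9 members tested between stellate and sinusoidal endothelial nuclei, 8 were higher in stellate nuclei and Nos3 was lower, where 61.6% of all genes were called in either direction. Prkg1 (chr19:30564489-31765033, minus strand) averaged 11651 ± 1155 CPM in stellate and 3318 ± 284 CPM in sinusoidal endothelial nuclei (SD, n = 6; log2 fold change 1.97, SE 0.14, adjusted p = 3.2e-18). Both were far above hepatocytes, at 11.1 to 19.9 CPM. Pde5a (chr3:122728947-122859374, plus strand) was likewise in both, at 109 ± 19.4 CPM in stellate and 44.7 ± 5.97 CPM in sinusoidal endothelial nuclei (log2 fold change 1.44, SE 0.11, adjusted p = 3.91e-16).

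Ednra (chr8:77663031-77724464, minus strand) averaged 887 ± 117 CPM in stellate and 1.59 ± 0.528 CPM in sinusoidal endothelial nuclei (SD, n = 6; log2 fold change 9.21, SE 0.21, adjusted p = 1.24e-39). Agtr1a (chr13:30336441-30382867, plus strand) averaged 2125 ± 623 CPM in stellate and 4.79 ± 1.76 CPM in sinusoidal endothelial nuclei (log2 fold change 8.89, SE 0.20, adjusted p = 6.22e-42). The sense intronic gene Gm48161 overlaps Agtr1a on the same strand. Hepatocytes also held Agtr1a, at 114 to 263 CPM, as did cholangiocytes, at 69.9 to 117 CPM. After thinning, 79.8% of stellate nuclei and 15.6% of hepatocytes had an Agtr1a UMI (98.1% and 66.7% before), against 0.507% of sinusoidal endothelial nuclei (1.76%). Ednrb (chr14:103814625-103844402, minus strand) was found in both stellate and endothelial nuclei, at 571 ± 98.5 CPM in stellate and 188 ± 183 CPM in sinusoidal endothelial nuclei, where single libraries ran from 22.2 to 525 CPM. The stellate level was higher in 6 of 6 mice (log2 fold change 2.14, SE 0.55, adjusted p = 0.00564), and in knockout mice alone the call was lost (adjusted p = 0.129).

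The small mesenchymal cluster carried most of these genes at lower levels. Of 9 members tested, 6 were higher in stellate nuclei than in this cluster, where 19.7% of all genes were called: the 3 cyclase subunits, Prkg1, Ednra and Agtr1a. Agtr1a had the widest of these gaps, at 2125 ± 623 CPM in stellate nuclei and 455 ± 204 CPM in the cluster (log2 fold change 2.67, SE 0.16, adjusted p = 7.69e-20). Gucy1a2 had the narrowest, at 776 ± 83.6 CPM in stellate nuclei and 491 ± 118 CPM in the cluster (log2 fold change 1.08, SE 0.14, adjusted p = 7.32e-09). The median of all genes was 0.22, or -0.17 with library size as the only scaling, and no member call changed with that scaling. Ednrb, at 571 ± 98.5 and 545 ± 249.9 CPM, did not pass (log2 fold change 0.68, SE 0.64, adjusted p = 0.551), nor did Pde5a, at 109 ± 19.4 and 127 ± 52.4 CPM (adjusted p = 0.626). Against sinusoidal endothelial nuclei the cluster was higher in 7 of 9 members and lower in Nos3, where 38.1% of all genes were called, and the Prkg1 call was lost in knockout mice alone (adjusted p = 0.445), after thinning (0.652), without control 3 (adjusted p = 0.0881) and without knockout 1 (adjusted p = 0.0571).

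Within stellate nuclei, guanylate cyclase and its effectors were graded from the portal-side to the central-side type. These types are clusters named from markers, not measured positions. Of 8 members tested, 7 were higher in the portal-side than in the central-side type, where 18.0% of all genes were called in either direction and 9.05% were higher. Gucy1a2 had the steepest grade. On the portal side it was at 1426, 1184 and 1348 CPM in knockout mice and 1603, 1279 and 1390.4 CPM in control mice, and on the central side at 307, 309 and 351 CPM in knockout mice and 343, 406 and 332 CPM in control mice. The sides did not overlap in any mouse, and the middle type lay between at 606 ± 100.4 CPM. The difference between the outer types passed the test (log2 fold change 2.08, SE 0.08, adjusted p = 1.94e-21). Gucy1a2 was among the 10 leading genes of the portal-side cluster although it was left out of the clustering, and the types were cut from the same nuclei in which levels were read.

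The partner subunits had shallower grades. Gucy1a1 averaged 649.7 ± 50.1 CPM on the portal side, 535 ± 51.7 CPM in the middle and 395 ± 57.2 CPM on the central side (SD, n = 6; log2 fold change 0.80, SE 0.07, adjusted p = 6.67e-15 for the outer types). Gucy1b1 averaged 687 ± 154, 571 ± 115 and 432 ± 66.1 CPM in the same order (log2 fold change 0.73, SE 0.07, adjusted p = 9.04e-14). Both were higher on the portal side in 6 of 6 mice. As a share of alpha subunit UMIs, Gucy1a2 made up 67.8% ± 1.90 on the portal side, 52.9% ± 5.72 in the middle and 46.5% ± 5.16 on the central side. The portal side exceeded the central side by 21.3 points in 6 of 6 mice (exact sign-flip test, two-sided, p = 0.03125, the smallest that 6 mice allow, and 0.0625 adjusted over 8 comparisons). UMI shares are not corrected for gene length (361.959 kb for Gucy1a2 and 53.363 kb for Gucy1a1), so only the change between types is read.

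Prkg1 averaged 14176 ± 996 CPM on the portal side, 11631 ± 1053 CPM in the middle and 9582 ± 1084 CPM on the central side (log2 fold change 0.64, SE 0.04, adjusted p = 8.12e-19 for the outer types). Pde5a averaged 142 ± 27.9, 107 ± 16.5 and 78.2 ± 23.0 CPM in the same order (log2 fold change 0.92, SE 0.12, adjusted p = 3.11e-09). Steps between neighbouring types passed for most members: 7 of 8 were higher on the portal side than in the middle (8.22% of all genes called), and 6 of 8 were higher in the middle than on the central side (10.4%). Without the mouse block, 5 of the 7 calls between portal side and middle were lost (Gucy1a1, Gucy1b1, Prkg1, Pde5a and Agtr1a), and 3 of the 6 between middle and central side (Gucy1b1, Pde5a and Agtr1a). The call of Pde5a between portal side and middle was also lost without control 3 (adjusted p = 0.0636). The step of Pde5a between portal side and middle, a log2 fold change of 0.43, was -0.01 after thinning to 1000 UMIs.

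**Figure D2:**
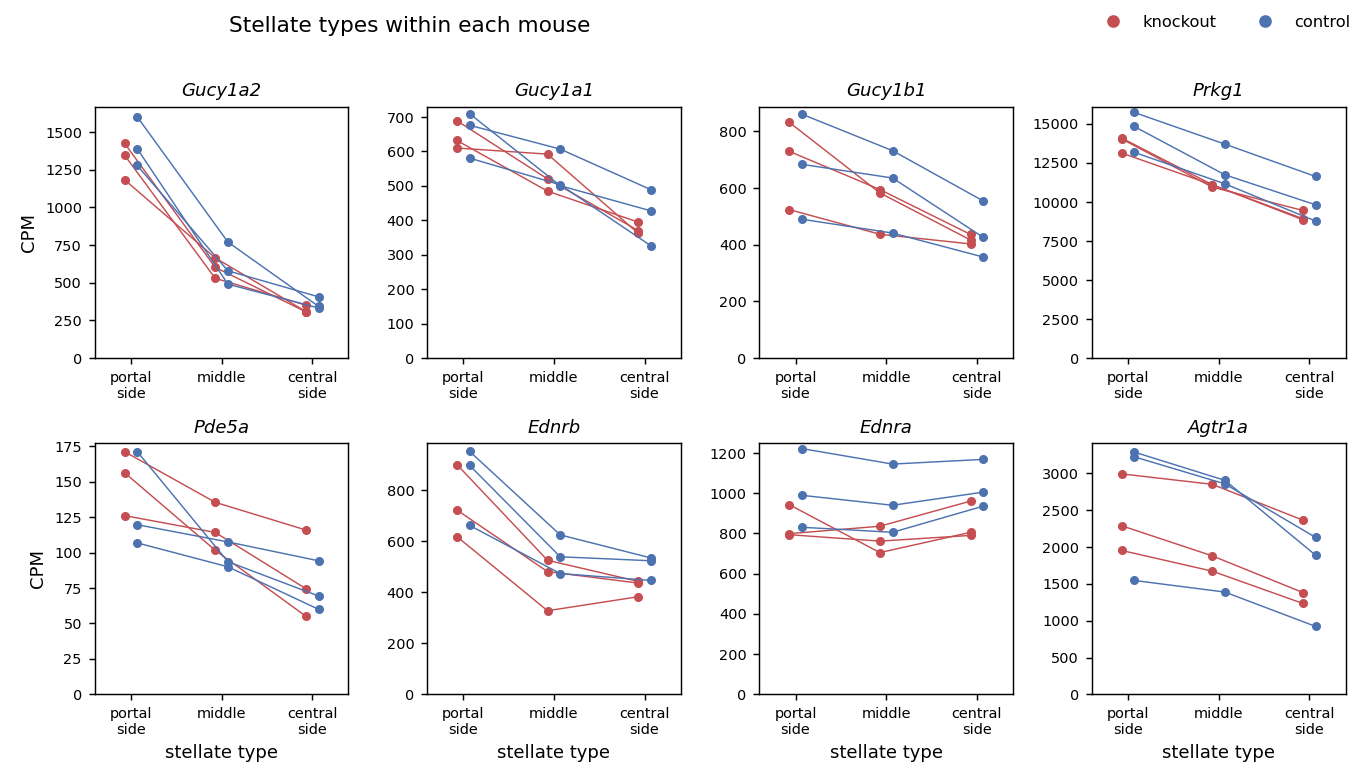
CPM of 8 genes in the 3 stellate types (horizontal axis) of each mouse, with knockout mice in red, control mice in blue and lines joining the types of 1 mouse. Gucy1a2 is at 1184 to 1603 CPM on the portal side and 307 to 406 CPM on the central side, while Ednra shows no such grade.

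The endothelin receptors differed in this respect. Ednra was at 929.7 ± 164, 866 ± 158 and 944 ± 139 CPM on the portal side, in the middle and on the central side, and the outer types did not differ past the threshold (log2 fold change 0.05, SE 0.06, adjusted p = 0.686; log2 fold change -0.03 with library size as the only scaling). Ednrb was at 792 ± 142, 495 ± 98.3 and 461 ± 57.7 CPM in the same order. Its portal side exceeded the central side in 6 of 6 mice (log2 fold change 0.85, SE 0.06, adjusted p = 5.02e-17), and the middle did not differ from the central side past the threshold (adjusted p = 0.168). The Ednra share of receptor UMIs was 54.0% ± 6.72 on the portal side and 67.1% ± 3.83 on the central side, lower on the portal side in 6 of 6 mice (exact sign-flip test, two-sided, p = 0.03125, adjusted p = 0.0625). Agtr1a was at 2549 ± 725, 2259 ± 689 and 1654 ± 561 CPM, higher on the portal side in 6 of 6 mice (log2 fold change 0.71, SE 0.05, adjusted p = 2.82e-17; adjusted p = 0.139 without the mouse block).

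The wider pathway was read from gene lists whose genes were not kept out of the clustering, so these values describe the types. Of 19 contractile genes tested, 10 were higher on the portal side, namely Myh11, Cacna1c, Lmod1, Tpm1, Cald1, Tagln, Des, Rock2, Rock1 and Myh9, and Myh10 was lower. Of all genes, 18.0% were called in this comparison and 9.05% were higher. The median of the list was 0.26, against -0.01 over all genes, which itself was -0.08 with library size as the only scaling. Myh11, the smooth muscle myosin heavy chain, was at 132 ± 36.9 CPM on the portal side and 2.60 ± 2.06 CPM on the central side. Cacna1c, a voltage-gated calcium channel, was at 365 ± 185 CPM on the portal side and 34.3 ± 13.2 CPM on the central side. Tagln is itself one of the markers by which the portal side was named. Of 13 other receptors and ligands, Ptger3, Adra1b, Calcrl, S1pr3, Ramp1, Vipr1 and Ptger2 were higher and Adm, which encodes adrenomedullin, was lower. Of 10 genes of cyclic GMP and its control, Npr3, Pde3a, Pde10a and Pde1a were higher, and Pde9a and Pde1c were lower. Of 7 kinase targets, Mrvi1 and Rgs4 were higher, and Ppp1r12b, Atp2a2 and Itpr1 were lower. Rgs4, a brake on G-protein signals, was at 46.9 ± 7.12 CPM on the portal side and 2.95 ± 2.31 CPM on the central side. Of 10 genes of nitric oxide synthesis and its control, Nostrin was higher and Nos1ap lower. Enpep of the renin and angiotensin genes was higher, Pla2g4a and Ptgis were higher and Ptgs1 lower of 5 prostanoid genes, and the endothelin-converting enzyme Ece1 was lower. Of 20 transcripts of free hepatocyte RNA, 5 were lower on the portal side, and their part in these results was not tested.

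Nos3 (chr5:24364810-24384474, plus strand) was an endothelial gene. It was at 129.8, 85.1 and 127 CPM in sinusoidal endothelial nuclei of knockout mice and 99.5, 171 and 103 CPM in those of control mice, and stellate nuclei held 3 UMIs in all knockout libraries and 1 in all control libraries. Nos3 overlaps Atg9b and Gm15587 on the other strand, and whether reads of these genes entered its count was not tested. Along the vessel axis Nos3 was at 151 ± 31.1 CPM in the portal vessel class, 146 ± 35.6 in the periportal, 112 ± 25.5 in the midzonal and 140.3 ± 55.5 in the pericentral zone, and 237 ± 128 CPM in the central vein class (SD, n = 6). No step between sinusoidal zones passed the threshold. The central vein class exceeded the pericentral zone in 5 of 6 mice (log2 fold change 0.64, SE 0.18, adjusted p = 0.00563), but not past the threshold without the mouse block (adjusted p = 0.0878), in knockout mice alone (0.455) or after thinning (0.0686).

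Edn1 (chr13:42301476-42307990, plus strand) was found in the larger vessels. In the central vein class it was at 145, 239 and 411 CPM in knockout mice and 175, 301 and 440.1 CPM in control mice, and in the portal vessel class at 94.4, 123 and 131 CPM in knockout mice and 62.3, 226 and 169.9 CPM in control mice. The pericentral zone held 1 UMI in knockout and 1 in control libraries, and the periportal zone 4 and 2 UMIs. Central vein against pericentral zone (285 ± 122 and 0.346 ± 0.543 CPM, adjusted p = 2.29e-32) and portal vessel against periportal zone (134 ± 57.6 and 2.41 ± 3.69 CPM, adjusted p = 7.4e-22) both passed the threshold. After thinning, 17.7% of central vein and 10.6% of portal vessel nuclei had an Edn1 UMI (35.4% and 24.5% before), against 0 of 5215 hepatocytes (0.230% before). That 0 allows a share of up to 0.0575% of hepatocytes with an Edn1 UMI at the thinned depth (3 counts of the total, counting error only). Between the vessels, Edn1 was lower in the portal vessel class, with 0 of 6 mice higher there (log2 fold change -1.05, SE 0.17, adjusted p = 1.78e-06). The antisense gene Gm47118 overlaps Edn1.

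Portal vessel nuclei carried the guanylate cyclase pair, which was scarce in the sinusoidal zones. Gucy1a1 was at 197, 83.1 and 85.1 CPM in knockout mice and 115, 139 and 93.9 CPM in control mice of that class. Central vein nuclei held 0 Gucy1a1 UMIs in knockout and 1 in control libraries, and periportal nuclei 2 and 2. Gucy1b1 was at 69.8 ± 17.2 CPM in the portal vessel class, 23.9 ± 14.5 in the periportal, 3.18 ± 2.66 in the midzonal and 1.16 ± 0.321 CPM in the pericentral zone. Portal vessel over periportal (log2 fold change 1.61, SE 0.31, adjusted p = 2.15e-05) and periportal over midzonal (log2 fold change 2.82, SE 0.36, adjusted p = 6.78e-09) passed the threshold, and midzonal over pericentral did not (adjusted p = 0.189). After thinning, 2.80% of periportal nuclei had a Gucy1b1 UMI (5.83% before), against 0.176% of pericentral nuclei (0.469% before) and 0 of 5215 hepatocytes (0.556% before). Gucy1a1 was at 1.38 ± 2.55 CPM in the same periportal nuclei.

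Ednrb followed this axis with wide differences between mice. In periportal nuclei it was at 1401, 1305 and 322 CPM in knockout mice and 559, 333 and 245 CPM in control mice, and in pericentral nuclei at 199, 132 and 44.4 CPM in knockout mice and 5.12, 74.4 and 4.71 CPM in control mice. The periportal level was the higher one in 6 of 6 mice (log2 fold change 3.19, SE 0.55, adjusted p = 0.000162), and periportal also exceeded midzonal (log2 fold change 2.31, SE 0.47, adjusted p = 0.00141). In control mice alone both calls were lost (adjusted p = 0.0875 and 0.0938), and the second also without the mouse block (0.135). The portal vessel class, at 1081 ± 757 CPM, did not differ from the periportal zone past the threshold (adjusted p = 0.272) but exceeded the central vein class, at 129 ± 138 CPM (log2 fold change 3.09, SE 0.67, adjusted p = 0.00142; 0.15 in control mice alone). Prkg1 was at 3894 ± 313, 3762 ± 496, 3338 ± 267, 2596 ± 236 and 2029 ± 350.5 CPM from the portal vessel through the zones to the central vein. Periportal exceeded pericentral in 6 of 6 mice (log2 fold change 0.50, SE 0.08, adjusted p = 8.88e-07), and the central vein lay below the pericentral zone (log2 fold change -0.40, SE 0.08, adjusted p = 0.000102; 0.151 in control mice alone). Pde5a did not differ between sinusoidal zones past the threshold and was lower in the central vein class, at 23.4 ± 16.6 CPM, than in the pericentral zone, at 47.9 ± 10.8 CPM (log2 fold change -0.94, SE 0.28, adjusted p = 0.0093; 0.0611 without knockout 1).

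Of 7 members tested in each zone comparison, 3 were called between periportal and pericentral (15.0% of all 8361 genes), 2 between periportal and midzonal (12.3%), 1 between midzonal and pericentral (6.21%), 3 between portal vessel and periportal (26.6%), 4 between central vein and pericentral (23.5%) and 5 between portal vessel and central vein (19.9%). Zones and vessels were filtered for low counts together. Edn1 was high only in the vessel classes there, and Gucy1a1 only in the portal vessel class. In the midzonal zone Edn1 held 2 UMIs in knockout and 2 in control libraries, and Gucy1a1 3 and 5. The 7 members thus include genes with hardly any UMIs in the zones, and their vessel calls describe where their UMIs lay.

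**Figure D3:**
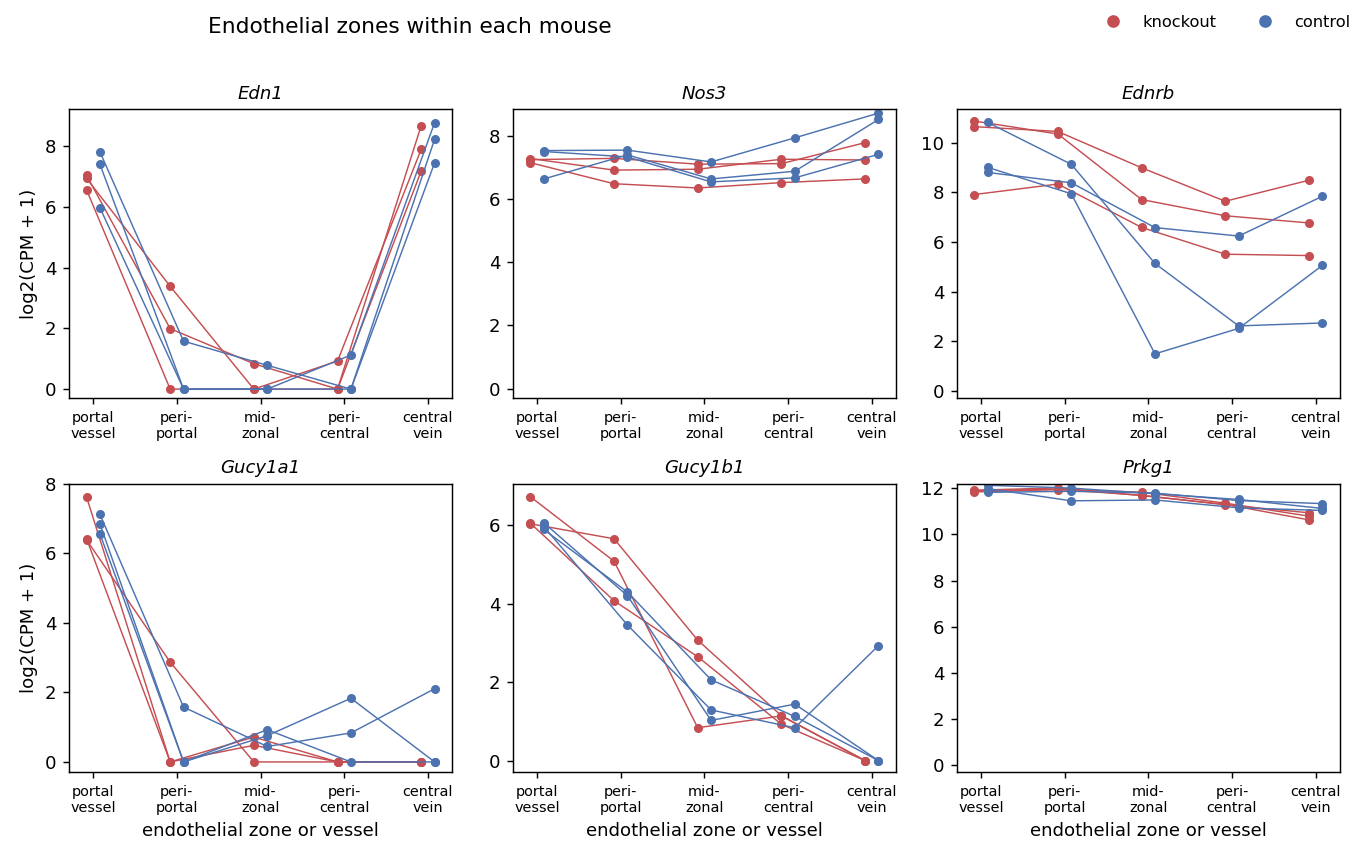
Log2(CPM + 1) of 6 genes from the portal vessel class through the 3 sinusoidal zones to the central vein class (horizontal axis) in each mouse, with knockout mice in red and control mice in blue. Edn1 is high in both vessel classes and near 0 between them, and Gucy1b1 and Ednrb are lower toward the pericentral zone.

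Some listed pathway genes, again not kept out of the clustering, also differed between zones. The prostanoid enzymes Tbxas1, Ptgis and Ptgs1 were lower in the periportal than in the pericentral zone, 3 of 4 tested, where 15.0% of all genes were called. Tbxas1, thromboxane synthase, was at 117 ± 52.0 CPM in periportal and 606 ± 36.1 CPM in pericentral nuclei. Of 14 genes of nitric oxide synthesis and its control, Gch1, which makes a cofactor of the synthase, and the transcription factor Klf4 were higher. That share was no larger than that of all genes called. Ece1 was at 159.5 ± 29.7 CPM in periportal and 108 ± 14.9 CPM in pericentral nuclei, and it was higher. Pde1c was higher, and Pde2a and Abcc5 were lower, of 11 genes of cyclic GMP and its control. S1pr1 and F2r were higher of 5 other receptors, and Ppp1r12b of the kinase targets was lower. Arhgef12 was lower of 13 contractile genes, a smaller share than that of all genes called. Of 6 renin and angiotensin genes, Ace was higher, and Enpep, Agtrap, Ctsd and Rnpep were lower. Of 20 transcripts of free hepatocyte RNA, Apoe, Fabp1 and Ttr were higher in the periportal zone, and their part was not tested.

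Knockout and control mice did not differ past the threshold in any of the 10 genes in any class tested. In 6 classes, 0 of 27 member tests passed by edgeR's quasi-likelihood test of 3 against 3 mice, 2 had an unadjusted p under 0.05, and DESeq2 called 0. Over all genes, 0.0503% were called in stellate, 0.0152% in T/NK and 0.0% in sinusoidal endothelial, hepatocyte, macrophage and cholangiocyte nuclei. In the 8 stellate types, zones and vessels, 0 of 47 passed by edgeR, 6 had an unadjusted p under 0.05, and DESeq2 called 0. Over all genes, 0.0914% were called in the portal-side, 0.0672% in the middle and 0.0615% in the central-side stellate type, 0.0212% in the pericentral zone, 0.0241% in the central vein class and 0.0% in the other zones and the portal vessel class.

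In stellate nuclei 7 of 8 members had a negative log2 fold change, with a median of -0.14, against -0.00 over all genes. Ednra was at 774, 804 and 849 CPM in knockout mice and 846, 1085 and 964 CPM in control mice. The knockout mice were the low ones, with an overlap of knockout 3 and control 1 (log2 fold change -0.30, SE 0.13, unadjusted p = 0.0366, adjusted p = 0.999). The log2 fold change of Ednra was -0.32 in the portal-side, -0.37 in the middle and -0.35 in the central-side type. Ednrb was at 604, 527 and 452 CPM in knockout mice and 652, 488 and 704 CPM in control mice, with control 2 among the knockout mice (log2 fold change -0.27, SE 0.17, adjusted p = 0.999). In the central-side type Ednrb was at 442, 436 and 382 CPM in knockout mice and 523, 446 and 534 CPM in control mice. There the groups did not overlap, as held for 10.2% of all genes with at least 60 UMIs (log2 fold change -0.32, SE 0.15, unadjusted p = 0.0464, adjusted p = 0.998).

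Guanylate cyclase and its effectors overlapped between genotypes in stellate nuclei. Gucy1a2 was at 748, 714 and 796 CPM in knockout mice and 932, 702 and 763 CPM in control mice (log2 fold change -0.14, SE 0.14, adjusted p = 0.999; 2 SE interval -0.41 to 0.14). Gucy1b1 was at 583, 601 and 454 CPM in knockout mice and 725, 414 and 594 CPM in control mice (log2 fold change -0.13, SE 0.20, adjusted p = 0.999), and Prkg1 at 11186, 11269 and 11206 CPM in knockout mice and 12231, 10346 and 13668 CPM in control mice (log2 fold change -0.16, SE 0.14, adjusted p = 0.999). The controls of Gucy1b1 and Prkg1 spread wider than the knockouts and enclosed them. Pde5a was at 139, 105 and 109 CPM in knockout mice and 108, 78.7 and 115 CPM in control mice (log2 fold change 0.18, SE 0.17, adjusted p = 0.999). Gucy1a1, whose values are given above, had a log2 fold change of -0.08 (SE 0.14). The Gucy1a2 share of alpha subunit UMIs was 59.1% ± 0.330 in knockout and 60.2% ± 3.57 in control mice (exact permutation test, two-sided, p = 0.7, where 0.1 is the smallest that 3 against 3 allows). In the middle type Prkg1 was at 11111, 10956 and 11104 CPM in knockout mice and 11743, 11164 and 13708 CPM in control mice, without overlap (10.4% of all genes there; log2 fold change -0.19, SE 0.12, adjusted p = 0.999).

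Agtr1a divided the libraries across genotypes. It was at 1826, 1597 and 2737 CPM in knockout mice and 1320.0, 2509 and 2757 CPM in control mice (log2 fold change -0.15, SE 0.32, adjusted p = 0.999). Knockout 3, control 2 and control 3 were high, and knockout 1, knockout 2 and control 1 were low. Fkbp5, a gene induced by glucocorticoids that was chosen after its values were seen, divided the same libraries, at 273, 223 and 1220.1 CPM in knockout mice and 223, 1146 and 862 CPM in control mice. Its part in the spread of Agtr1a was not tested.

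**Figure D4:**
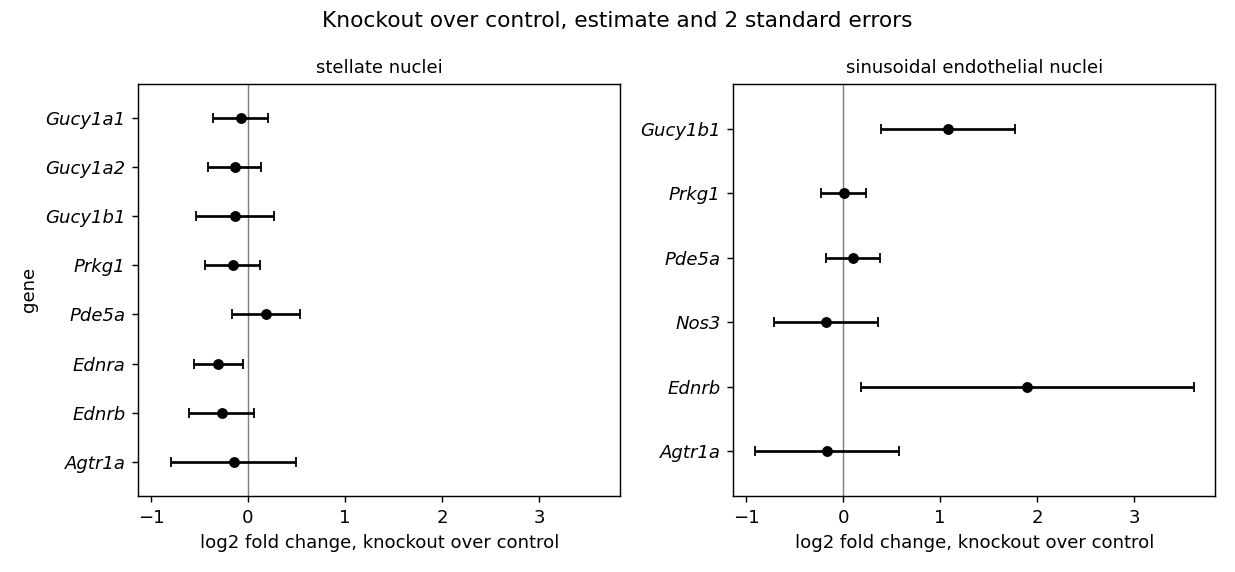
Log2 fold change of knockout over control (horizontal axis) for each tested gene in stellate and in sinusoidal endothelial nuclei, with points for the edgeR estimate and bars for 2 standard errors on either side. In stellate nuclei 7 of 8 estimates lie below 0, and in sinusoidal endothelial nuclei Ednrb (1.90) and Gucy1b1 (1.08) lie farthest above 0, with no adjusted p under 0.05.

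Ednrb had the largest estimate in sinusoidal endothelial nuclei. It was at 525, 259.8 and 112 CPM in knockout mice and 79.6, 130.4 and 22.2 CPM in control mice. Knockout 1 and knockout 2 were the high libraries, and knockout 3 lay below control 2 (log2 fold change 1.90, SE 0.86, unadjusted p = 0.0805, adjusted p = 1), and the log2 fold change was 1.19 without knockout 1 and 2.52 without control 2. In the midzonal zone Ednrb was at 507, 208 and 95.1 CPM in knockout mice and 34.0, 94.6 and 1.81 CPM in control mice, where the lowest knockout and the highest control nearly met (10.0% of all genes there did not overlap; log2 fold change 2.56, SE 1.23, adjusted p = 0.998). That estimate was 1.70 without knockout 1 and 3.82 without control 2. In the periportal zone the estimate (log2 fold change 1.40, SE 0.62, adjusted p = 0.931) passed the threshold without knockout 3 (adjusted p = 0.0241). In the portal vessel class Ednrb was at 1604, 1878 and 239.7 CPM in knockout mice and 1807, 446 and 514 CPM in control mice, with knockout 3 the lowest of the 6. Knockout 1, knockout 2 and control 1 were the high libraries there, and they were also the 3 highest in the periportal zone, at 1401, 1305 and 322 CPM in knockout mice and 559, 333 and 245 CPM in control mice. They are the libraries in which Agtr1a and Fkbp5 were low in stellate nuclei. A macrophage cluster of 2395 nuclei divided the libraries in the same way, with 558, 644 and 64 nuclei in knockout mice and 818, 117 and 194 nuclei in control mice. Hepatocyte clusters divided them otherwise. A cluster of 1597 hepatocytes had 1, 717 and 0 nuclei in knockout mice and 878, 1 and 0 in control mice. Another, of 618, had 583, 0 and 10 in knockout mice and 0, 14 and 11 in control mice. In the whole sinusoidal endothelial class and the midzonal and pericentral zones control 2 lay above control 1 in Ednrb. In the central vein class 32.8% of control 2 nuclei and 2.22% of control 1 nuclei had an Ednrb UMI. The part of these divisions of the libraries in the Ednrb values was not tested. In hepatocytes Ednrb was at 4.43, 2.21 and 3.30 CPM in knockout mice and 1.20, 2.96 and 0.580 CPM in control mice.

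Gucy1b1 in sinusoidal endothelial nuclei was at 10.7, 6.95 and 4.36 CPM in knockout mice and 3.52, 2.82 and 4.01 CPM in control mice, from 125 UMIs in knockout and 54 in control libraries. Every knockout lay above every control, and the difference did not pass over all genes (log2 fold change 1.08, SE 0.34, unadjusted p = 0.00971, adjusted p = 1). It was the 1 of 6 members without overlap in this class, against 9.8% of all genes, and in stellate nuclei 0 of 8 members were without overlap, against 10.4%. In periportal nuclei Gucy1b1 was at 49.2, 15.8 and 32.8 CPM in knockout mice and 17.4, 9.94 and 18.6 CPM in control mice, with overlap, and had too few UMIs for the test. Stellate markers summed to 737 to 1193 CPM in sinusoidal endothelial nuclei of knockout mice and 693 to 881 CPM in those of control mice, with 0 of the 10 at 0, and their part in the Gucy1b1 difference was not tested. Gucy1a1 had 9 UMIs in the same knockout and 14 in the same control nuclei. The stellate minus the sinusoidal endothelial effect was -1.16 for Gucy1b1 (SE 0.27, unadjusted p = 0.000548, adjusted p = 0.535) and -2.12 for Ednrb (SE 0.99, unadjusted p = 0.0944, adjusted p = 1), where 0.0211% of all genes were called.

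Nos3 did not differ past the threshold in sinusoidal endothelial nuclei as a whole (log2 fold change -0.17, SE 0.27, adjusted p = 1). In the periportal zone it was at 119.6, 88.5 and 155 CPM in knockout mice and 160.0, 186 and 167 CPM in control mice. Every knockout lay below every control there, as against 11.4% of all genes without overlap (log2 fold change -0.52, SE 0.21, unadjusted p = 0.0258, adjusted p = 0.845). In the central vein class it was at 149.6, 98.5 and 219 CPM in knockout mice and 169, 419.8 and 365 CPM in control mice, with control 1 among the knockout mice (log2 fold change -1.05, SE 0.34, unadjusted p = 0.0071, adjusted p = 0.553), and without control 1 it passed the threshold (adjusted p = 0.0165). Control 3 had 20 nuclei in that class. Prkg1 in the central vein class was at 1577, 1763 and 1950.4 CPM in knockout mice and 2569, 2092 and 2222 CPM in control mice, without overlap (10.1% of all genes there; log2 fold change -0.38, SE 0.18, unadjusted p = 0.0469, adjusted p = 0.878). Edn1 overlapped between genotypes in the central vein (log2 fold change -0.16, SE 0.40, adjusted p = 0.998) and portal vessel classes (log2 fold change -0.39, SE 0.39, adjusted p = 1). Outside the sinusoid, Gucy1a2 in cholangiocytes was at 48.4, 83.5 and 60.5 CPM in knockout mice and 31.8, 46.9 and 44.2 CPM in control mice, where every knockout lay above every control, as against 8.44% of all genes without overlap in either direction (log2 fold change 0.60, SE 0.33, unadjusted p = 0.0699, adjusted p = 0.999).

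**Figure D5:**
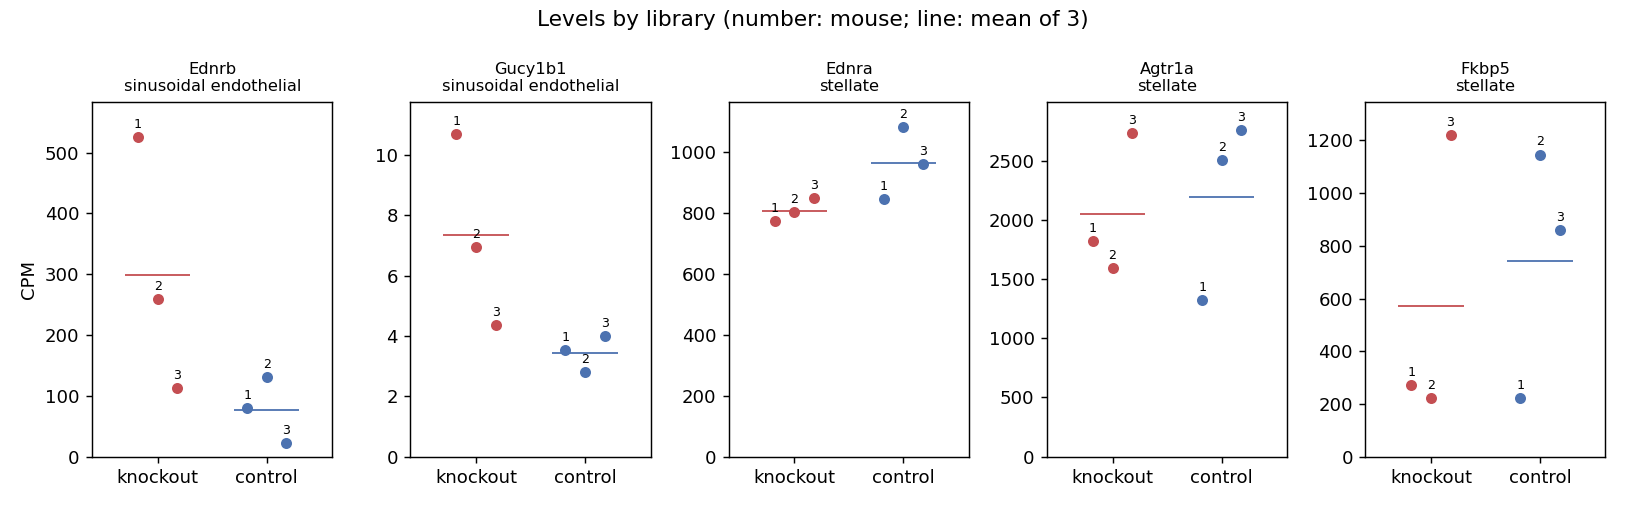
CPM by library, knockout mice left of control mice, for Ednrb and Gucy1b1 in sinusoidal endothelial nuclei and for Ednra, Agtr1a and Fkbp5 in stellate nuclei. Points are libraries marked with the mouse number, and lines are means of 3. Agtr1a and Fkbp5 are both high in knockout 3, control 2 and control 3.

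None of the listed pathway genes passed the threshold between genotypes in stellate or sinusoidal endothelial nuclei by edgeR, where 489 and 549 of all genes had an unadjusted p under 0.05 and DESeq2 called 14 and 21 genes. In stellate nuclei, of 20 contractile genes tested 12 had a positive log2 fold change, with a median of 0.12. Cald1, an actin-binding brake on contraction, averaged 885 CPM in knockout mice and 1007 CPM in control mice. Of 13 genes of cyclic GMP and its control 7 were positive, and Pde3a, which cyclic GMP inhibits, averaged 2156 CPM in knockout mice and 1970.1 CPM in control mice. Of 8 kinase targets 2 were positive, and Itpr1, a calcium release channel, averaged 917 CPM in knockout mice and 924 CPM in control mice. Of 14 other receptors 8 were positive, and Calcrl, a receptor for adrenomedullin and CGRP, averaged 1675 CPM in knockout mice and 1506 CPM in control mice. In sinusoidal endothelial nuclei, 8 of 19 genes of nitric oxide synthesis and its control were positive, with a median of -0.12. Nostrin, which traffics the synthase, averaged 668 CPM in knockout mice and 682 CPM in control mice, and Klf2, a flow-responsive transcription factor that induces Nos3, averaged 106 CPM in knockout mice and 169 CPM in control mice (log2 fold change -0.72, SE 0.25, unadjusted p = 0.0233, adjusted p = 1). Ece1 averaged 119 CPM in knockout mice and 108 CPM in control mice. Tbxas1 averaged 324 CPM in knockout mice and 347 CPM in control mice, and 1 of 5 prostanoid genes was positive. Lnpep, an angiotensin IV receptor, averaged 222 CPM in knockout mice and 224 CPM in control mice, and 4 of 6 renin and angiotensin genes were positive. Of 20 transcripts of free hepatocyte RNA 16 were positive in stellate nuclei, with a median of 0.41. Their share of stellate UMIs was 0.231%, 0.322% and 0.416% in knockout mice and 0.197%, 0.230% and 0.253% in control mice, and its part in these comparisons was not tested.

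The genes most like each member were found by Pearson correlation of log2(CPM + 1) over 84 sums, those of 14 classes in 6 libraries, among 7795 genes. The sums share libraries and depth, so this is a description. Gucy1a1 was most like Gucy1b1 (r = 0.94) and Npr3 (r = 0.94), a natriuretic peptide receptor. Gucy1b1 was most like Gucy1a1 (r = 0.94) and Carmn (r = 0.91), a long noncoding RNA of smooth muscle, and Gucy1a2 most like Arhgef17 (r = 0.94) and Plekhh2 (r = 0.94). Prkg1 was most like Pxdn (r = 0.97) and Prickle2 (r = 0.96), and Pde5a most like Sparc (r = 0.89) and Prickle2 (r = 0.89). Nos3 was most like Rasip1 (r = 0.97) and F8 (r = 0.96), which encodes coagulation factor VIII, and Edn1 most like Bmx (r = 0.92) and Vwf (r = 0.91), von Willebrand factor. Ednra was most like Tbx20 (r = 0.97), Ednrb most like Col5a2 (r = 0.89) and Fbn1 (r = 0.89), and Agtr1a most like Aldh1a1 (r = 0.94) and Olfml1 (r = 0.93).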

How the data were processed

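Single-nucleus RNA was captured with the 10x Chromium 3′ v3.1 kit, per the labels' protocols. The deposited matrices hold UMI counts per gene and nucleus, made by the authors with Cell Ranger on mm10. The submitters' processing notes name version 7.0.1 and the file headers 7.1.0. Nuclei with at least 500 genes, 1000 UMIs and under 5% mitochondrial UMIs were kept, and 805 doublets called by scrublet (expected rate 0.06) were removed. Clustering used scanpy 1.11.5 (3000 variable genes, 30 components, 15 neighbours, Leiden resolution 1, and 2 for types and zones). Rules for stellate types and endothelial zones were set after the clusters were seen. Members and lists were chosen with earlier results of these data known.

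UMI counts were summed per mouse and class and tested with edgeR 4.0.16 in R 4.3.3 (quasi-likelihood test, TMM, filterByExpr, Benjamini-Hochberg within a comparison, threshold 0.05). Between genotypes, classes needed at least 20 nuclei in every library, or 10 for the small mesenchymal cluster. No such limit was set within mice, where this cluster, with 11 to 28 nuclei per library, was also compared. Comparisons within mice used the mouse as block. DESeq2 1.42.0, other scalings, no filter on low counts, doublets kept, thinned nuclei and leaving out each library were alternatives, and the statistics were checked on simulated counts. The pseudocount was 1. Named genes were all members, listed genes past the threshold or else among the 2 of a list with the highest mean CPM, the 2 genes most like each member, and Plvap, and a few genes that this rule names are not reported here. Values of 0 have a floor of 3 counts. Intervals and floors cover counting error only.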

Additional observations from a re-analysis of the deposited data

Results flagged for a closer look

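Ednrb had log2 fold changes of knockout over control of opposite sign in stellate and endothelial nuclei, and neither passed the threshold. In the central-side stellate type every knockout mouse lay below every control mouse (log2 fold change -0.32), and in the midzonal endothelial zone every knockout mouse lay above every control mouse (2.56). Of all genes with at least 60 UMIs, 10.2% and 10.0% were without overlap there. The difference between these subsets was not tested. In the whole stellate and sinusoidal endothelial classes Ednrb overlapped between genotypes. Between the whole stellate and sinusoidal endothelial classes the difference of the effects was -2.12 (SE 0.99, unadjusted p = 0.0944, adjusted p = 1 by edgeR). Knockout 3 and control 2 nearly met, at 95.1 and 94.6 CPM in the midzonal zone.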

How the results depend on the processing

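No paired analysis was possible because the labels number each mouse separately, the replicate numbers used here follow accession order, and no label says which control is the littermate of which knockout. Of 61 calls of members between types, zones and classes, 11 were lost without the mouse block, 10 in control mice alone, 6 in knockout mice alone and 0 with library size as the only scaling, and of the 56 with a fit after thinning 5 were lost. Leaving out control 3 or knockout 1 lost 2 each. Without the mouse block, in control mice alone, in knockout mice alone and after thinning the counts of all genes called were 349, 467, 521 and 352 (from 814) for portal side over middle, 446, 613, 611 and 422 (from 1025) for middle over central side, 729, 650, 779 and 622 (from 1255) for periportal over pericentral, 516, 516, 584 and 533 (from 1028) for periportal over midzonal and 186, 242, 291 and 334 (from 519) for midzonal over pericentral. Portal side over central side (1777) gave 1088 without the block, 1182 in controls and 743 thinned. In controls, in knockouts and thinned, central vein over pericentral gave 1243, 1222 and 889 (from 1962), and portal vessel over central vein 1090, 1040 and 816 (from 1664). Portal vessel over periportal (2224) gave 1287 in knockouts and 1179 thinned, stellate over the small mesenchymal cluster (2726) 1534 in knockouts, and stellate over sinusoidal endothelial (8509) 5256 thinned. With library size as the only scaling, higher and lower calls were 739 and 1185 for portal over central side (896 and 881 with TMM), and 725 and 1665 for stellate over the small mesenchymal cluster (1652 and 1074; thinned 1909 and 369), 3708 and 5389 for stellate over sinusoidal endothelial (4401 and 4108), 424 and 624 for middle over central side (536 and 489) and 2658 and 2060 for the small mesenchymal cluster over sinusoidal endothelial (2333 and 2922; thinned 1076 and 2640). For knockout over control, the genes called were 14 by DESeq2 and 67 with no filter in stellate nuclei (from 6), and 21, 68 and, with all classes in one fit, 8 in sinusoidal endothelial nuclei (from 0; 0 to 7 leaving out each library). The interaction calls were 1 with library size alone (from 3; 1 to 5 leaving out each library). Members called in classes were 1 (Prkg1 in T/NK nuclei) with all classes in one fit, and 0 to 1 leaving out each library, as also in types and zones. Log2 fold changes of knockout over control turned sign for Prkg1 with no filter in sinusoidal endothelial nuclei (-0.0023) and with doublets kept in T/NK nuclei (0.068). Leaving out each library, the ranges that crossed 0 were -0.20 to 0.034 for Gucy1a1, -0.33 to 0.055 for Gucy1b1 and -0.42 to 0.066 for Agtr1a in stellate nuclei, -0.088 to 0.093 for Prkg1 and -0.33 to 0.14 for Nos3 in sinusoidal endothelial nuclei, -0.63 to 0.13 for Edn1 in the central vein and -0.0037 to 1.35 for Ednrb in the portal vessel class. Between types, Pde5a portal side over middle was -0.0058 thinned, and Ednra portal over central side was -0.028 with library size alone and -0.0074 to 0.093 leaving out each library. The causes were not tested. With 3 mice a group and few UMIs of Edn1 and Gucy1b1 outside their main classes, small differences were not detectable.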

Other observations

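Prkg1 in T/NK nuclei was at 25.1, 27.9 and 37.4 CPM in knockout mice and 243, 83.3 and 28.0 CPM in control mice (log2 fold change -2.01, SE 0.91, adjusted p = 0.999), and without control 3 it passed the threshold (adjusted p = 0.014). With doublets kept the log2 fold change was 0.068 (unadjusted p = 0.939). Lymphatic endothelial nuclei, 41 in all, held Edn1 at 7 UMIs in knockout libraries and 1 in control libraries, and Gucy1a1 at 1 and 6. In the small mesenchymal cluster, tested after seeing the data with at least 10 nuclei per library, 0 of 8 members passed between genotypes by edgeR and 0 had an unadjusted p under 0.05, and DESeq2 was not run. Ednrb there was at 649, 188 and 878 CPM in knockout mice and 318, 636 and 601 CPM in control mice (log2 fold change 0.06, SE 0.48, adjusted p = 0.996), with knockout 2 the lowest of the 6.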
